A study of Mus musculus with 4 samples.

Results

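The cells described here are 159 of the 28085 cells kept from 4 single-cell libraries of mouse lung tumours, 0.566% of them. They were chosen by their own UMI counts as mural cells, the pericytes and smooth muscle cells that wrap blood vessels. A barcode was kept when at least 200 genes were detected and mitochondrial transcripts gave no more than 20% of its UMIs. A kept cell was selected when Rgs5, Cox4i2 and Notch3 together had at least 2 UMIs and Pdgfrb, Tagln and Acta2 together had at least 1. It also had to have no UMI of Ptprc, the pan-leukocyte antigen, of Cdh5, the endothelial cadherin, or of Epcam, the epithelial adhesion molecule. The counts of these 9 genes chose the cells, so their levels below are a description and are not a result.

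All 4 libraries came from mice with the alleles KrasFSF-G12D, p53frt, Rosa-FSF-CreERT2 and Hnf4aflox, and so did the vehicle controls. An adenovirus carrying FlpO under the surfactant protein C promoter (mSPC) was given by intubation. Tamoxifen or vehicle, which the labels name as ethanol in one place and corn oil in another, followed 10 weeks later, and cells were taken 2 weeks after that. Macroscopic tumours were dissociated, 1 portion of each suspension was kept as it was, and the remainder was passed over beads that remove CD45-positive and CD31-positive cells. Both portions were frozen, thawed, sorted for live single cells and run on 10x Genomics 3′ chemistry, version 3. The groups are therefore vehicle before and after depletion, then tamoxifen before and after depletion, and values are given in that order throughout. Each group holds 1 library, the portions before and after depletion come from the same suspensions, and the labels do not state the number of animals or tumours. There are no replicates, so no test between groups was made. All intervals are 95% intervals that cover counting error only.

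Pericytes sit in the basement membrane of capillaries and keep the endothelium stable, while smooth muscle cells form the contractile coat of arteries, arterioles and airways. Endothelial PDGF-B recruits mural cells through the receptor Pdgfrb, and endothelial Jagged ligands act on mural Notch3, whose signal reaches genes through the DNA-binding protein RBPJ. Contractile genes are driven by serum response factor with its partner myocardin at CArG boxes. In this mouse model FlpO is expressed from a promoter of alveolar type 2 cells, so CreERT2 is meant to be switched on in epithelial cells and not in mural cells.

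The upstream regions of 4 genes are shown because Rgs5, Abcc9, Acta2 and Myl9 stand for the pericyte and the contractile patterns described below. Each is the 250 bases before the RefSeq start in GRCm38.p6, read 5′ to 3′ on the strand of the gene. Capitals mark the RBPJ core TGGGAA or a CArG box, the binding motif of serum response factor, both searched on both strands. The CArG box was searched only in its strict form, CC, then 6 letters that are each A or T, then GG. Sequences with a mismatch to this form, which serum response factor can also bind, were not counted. None of these 4 windows held both the RBPJ core and a strict CArG box. The Acta2 window holds ccctatatgg and ccttgtttgg, the latter overlapping the marked RBPJ core. Each differs from the strict CArG form by a single letter, so neither is marked as a CArG box.
Rgs5, chr1:169655251-169655500, plus strand: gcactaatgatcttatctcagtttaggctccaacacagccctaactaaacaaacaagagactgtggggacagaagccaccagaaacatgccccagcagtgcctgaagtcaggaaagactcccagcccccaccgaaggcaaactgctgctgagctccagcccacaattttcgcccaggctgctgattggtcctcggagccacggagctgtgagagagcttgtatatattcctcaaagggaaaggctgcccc
Abcc9, chr6:142702275-142702524, minus strand: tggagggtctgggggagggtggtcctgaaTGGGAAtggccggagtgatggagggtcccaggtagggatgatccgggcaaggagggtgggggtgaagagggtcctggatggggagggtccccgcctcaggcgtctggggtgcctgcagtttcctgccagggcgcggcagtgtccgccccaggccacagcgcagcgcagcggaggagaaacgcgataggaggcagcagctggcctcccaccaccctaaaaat
Acta2, chr19:34255374-34255623, minus strand: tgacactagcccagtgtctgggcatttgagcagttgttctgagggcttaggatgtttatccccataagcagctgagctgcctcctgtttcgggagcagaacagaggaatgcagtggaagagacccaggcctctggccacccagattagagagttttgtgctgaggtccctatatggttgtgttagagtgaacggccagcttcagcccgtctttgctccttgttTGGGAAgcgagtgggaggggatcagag
Myl9, chr2:156775214-156775463, plus strand: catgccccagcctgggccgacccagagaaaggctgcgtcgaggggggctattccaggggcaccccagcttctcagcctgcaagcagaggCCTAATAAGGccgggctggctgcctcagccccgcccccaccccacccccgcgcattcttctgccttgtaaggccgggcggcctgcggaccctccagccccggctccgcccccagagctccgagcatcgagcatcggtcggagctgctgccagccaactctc

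The RBPJ core began 221 bases before the start of Abcc9 and 27 bases before the start of Acta2, and the CArG box of Myl9 began 161 bases before its start. The Rgs5 window held neither set of letters, which says only that these letters are not in this window. Of 32851 RefSeq promoters of this length, 21.59% held the RBPJ core and 1.467% held a strict CArG box. Counted by gene, with a match in any of its promoters, the shares were 24.09% and 1.624% of 27025 genes. Of the 20 contractile genes listed for this report, 17 had a promoter among these. A strict CArG box was found for 2 of the 17 (Myl6 and Myl9) and an RBPJ core for 3. Of the 20 pericyte genes 13 had a promoter among these, none with a strict CArG box. An RBPJ core was found for 5 of them (Abcc9, Art3, Ebf1, Steap4 and Vtn). A match is a description of the sequence and not a binding site.

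The libraries held 7658, 7284, 6558 and 7867 barcodes with between 92644997 and 144994771 UMIs. Of 87 barcode sequences that occurred in more than 1 library, none was a selected cell. Hnf4a, the floxed gene, went against the treatment label: its level in Epcam-positive cells was 55.5, 56.2, 85.2 and 81.9 CPM (its UMIs scaled by the total of those cells). Directions are therefore given for the libraries labelled vehicle or tamoxifen. The 3′ reads may lie outside the floxed exons, which the labels do not name, so this level does not check the deletion. In the selected cells Hnf4a had 0, 0, 0 and 2 UMIs, the latter in 1 cell, where a count of 0 allows up to 4.97, 4.56 and 4.78 CPM in the libraries without a UMI. Cre, flpO, GFP and Tdtomato had no UMI in the selected cells.

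By library, 27, 57, 33 and 42 cells were selected, with median depths of 19247, 10837, 17860 and 8069.5 UMIs. They made up 0.370% (0.244 to 0.537, Clopper-Pearson) of kept cells in vehicle before depletion, 0.809% (0.614 to 1.05) in vehicle after depletion, 0.530% (0.365 to 0.743) in tamoxifen before depletion and 0.559% (0.403 to 0.755) in tamoxifen after depletion. The vehicle library after depletion had the largest share, and the interval of the vehicle library before depletion lay below it. The remaining intervals overlapped one another. Since Ptprc-positive cells made up much of the libraries before depletion and few were left after it, the share was also taken among kept cells without a Ptprc UMI. There it was 1.94%, 0.815%, 2.40% and 0.564%, higher before depletion than after it in both treatments. The selected cells were deeper before depletion, whereas kept cells were deeper after it, with medians of 9519, 17859, 9986 and 16631 UMIs. A deeper cell can reach the required sums more easily and can also show an excluded transcript more easily. The part of depth in these shares was not tested, so shares across depths were not compared further.

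**Figure D1:**
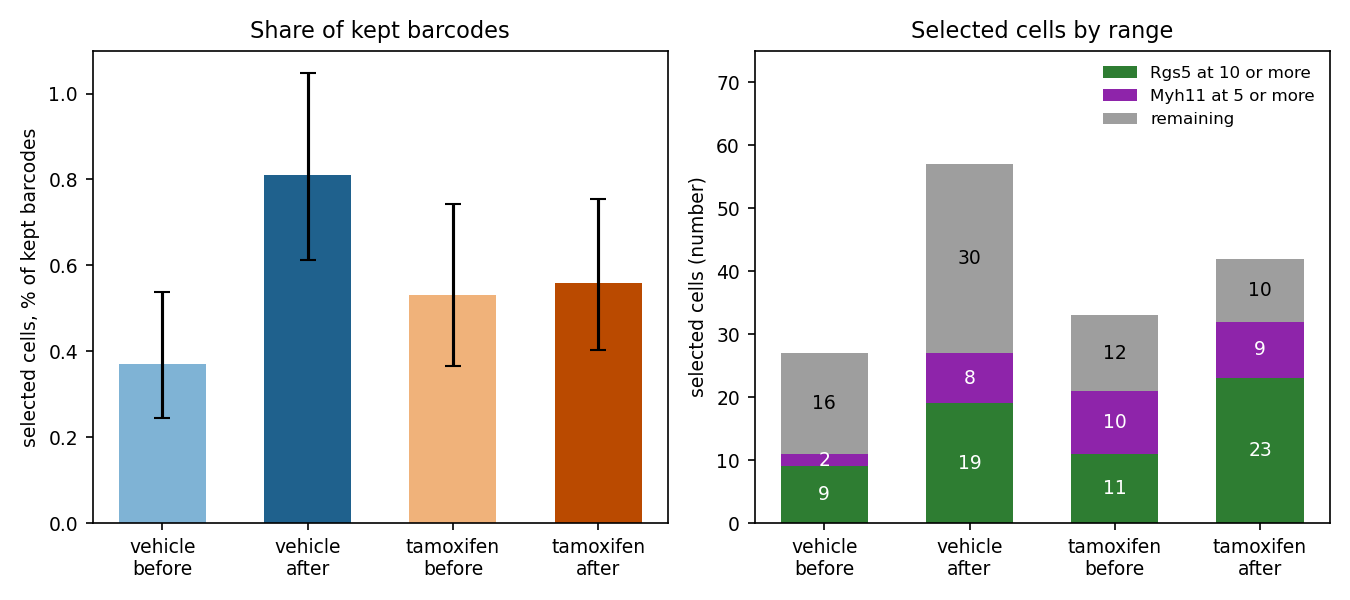
Left, selected cells as a percentage of kept cells in each library, with Clopper-Pearson 95% intervals as error bars. Right, the number of selected cells in each library, stacked by the 3 ranges of cells defined in the text. The share runs from 0.370% to 0.809%, and the cells of low Rgs5 and low Myh11 are the largest group in both vehicle libraries and in tamoxifen before depletion (16, 30 and 12 cells), while Rgs5-high cells are in tamoxifen after depletion (23 cells).

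The edges of the rule were populated. Both sums were met by 587 cells, and 428 of them were left out because they carried an excluded transcript, 406 with Epcam, 57 with Ptprc and 7 with Cdh5. For 23 of the 428 this was a single UMI. Of the selected cells 18 had a first sum of exactly 2, and 52 further cells met everything else with a first sum of 1. The 18 inside had a median of 26 UMIs over the 20 pericyte genes and 3.5 over Pdgfra, Dcn, Lum and Dpt, and the 52 outside had medians of 9 and 12.5. At least 3 UMIs of these 4 fibroblast genes were present in 11 of the 18 and in 37 of the 52.

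The genes used by the rule differed in how evenly the selected cells carried them. Rgs5, a regulator of G protein signalling and the best known pericyte marker (chr1:169655501-169695813 in GRCm38), stood at 1221 (1134 to 1312), 1666, 1961 and 2132 (2005 to 2265) CPM. It was nonetheless at 0 in 72 of the 159 cells. Cox4i2, an isoform of a cytochrome c oxidase subunit known from lung, was at 260, 289, 261 and 306 CPM. Notch3 was at 286, 280, 322 and 273 CPM, and Pdgfrb, the PDGF receptor of mural cells, was at 638, 497, 661 and 534 CPM. These 3 genes varied little across the libraries. Tagln, the actin-binding protein transgelin, was at 1355, 3457, 2724 and 2739 CPM and Acta2, smooth muscle actin, at 1394, 3813, 3104 and 2870 CPM. For both of them the vehicle library before depletion was the lowest.

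To see where the selected cells stood among the other cells, their mean level over the libraries was set beside that of 4 gates of kept cells that were not selected. The gates were epithelial (at least 2 Epcam UMIs, 793, 5805, 838 and 6288 cells), immune (at least 2 Ptprc UMIs, 3313, 4, 2260 and 7 cells), endothelial (at least 2 Cdh5 UMIs, 112, 128, 124 and 109 cells) and fibroblast (at least 3 UMIs of Pdgfra, Dcn, Lum and Dpt, 46, 57, 24 and 43 cells), each without the others' exclusion genes. The fibroblast gate by definition had at most 1 UMI of Rgs5, Cox4i2 and Notch3. Immune means came from the libraries before depletion, since a gate needed at least 20 cells in a library. Among 2749 genes with at least 50 CPM in the selected cells of every library, 76 (2.76%) were at least 2-fold above every gate, with a pseudocount of 10 CPM. Because the same cells were chosen by mural genes, this is a description.

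Higd1b, a member of the hypoxia-induced gene domain family and a pericyte marker, led outside the rule at 758, 532, 836 and 933 CPM. Its highest gate mean was 4.46 CPM, a log2 ratio of 5.74. Ndufa4l2, a paralogue of the complex IV subunit Ndufa4, followed at 376, 584, 562 and 577 CPM, with a log2 ratio of 4.45. Then came Gucy1a1 and Gucy1b1, the subunits of the nitric oxide receptor soluble guanylate cyclase, at 3.21 and 3.11, and Abcc9, the sulfonylurea receptor of the mural ATP-sensitive potassium channel, at 3.13. Cspg4, the NG2 proteoglycan of pericytes, had a log2 ratio of 3.02. All 6 genes stood high in each of the 4 libraries. The other 14 leading genes were Pcdh18, Pdzd2, Trpc6, Gjc1, Aspn, Postn, Ebf1, Rtn4rl1, Pgf, Olfml2b, Ppp1r14a, Lmod1, Itga1 and S1pr3, with log2 ratios from 2.78 down to 2.06. They include the calcium channel Trpc6, the gap junction protein Gjc1, the transcription factor Ebf1 and the sphingosine 1-phosphate receptor S1pr3.

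**Figure D2:**
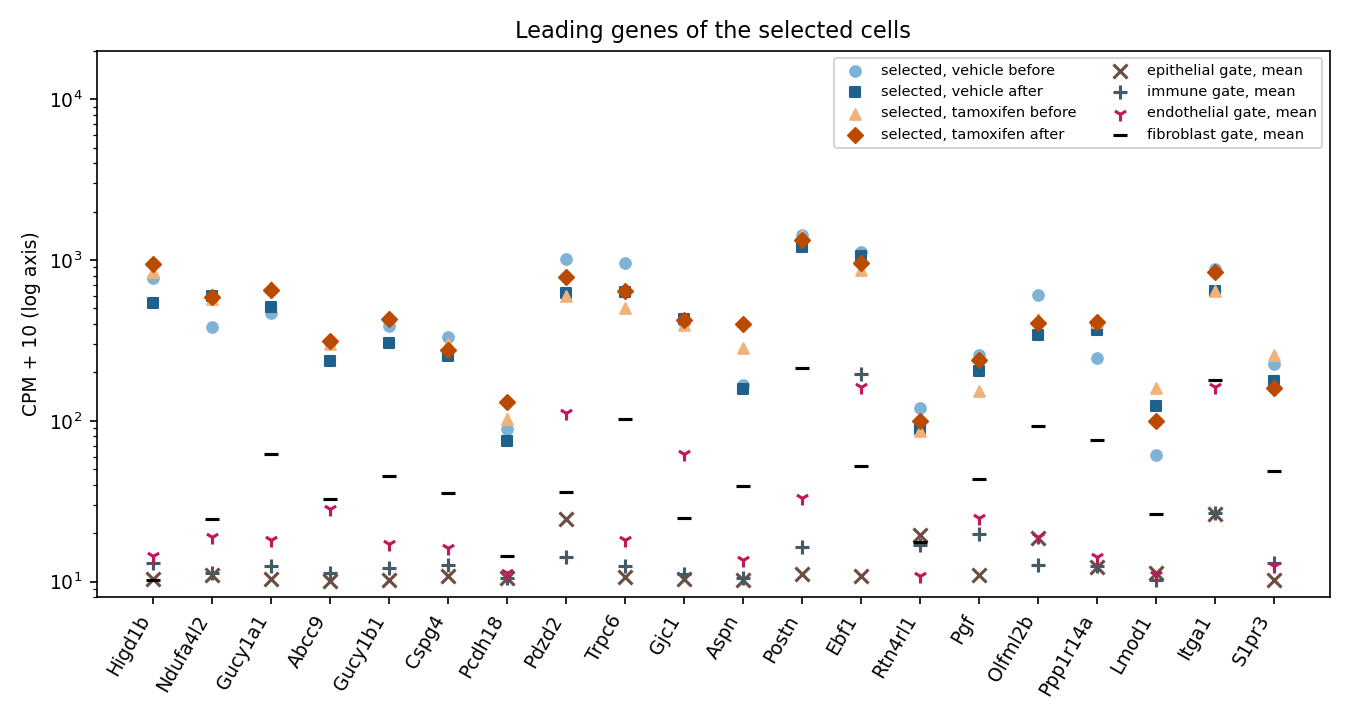
Levels of the 20 leading genes in the selected cells of each library (CPM plus 10, log axis), beside the mean of each comparison gate. The points of the selected cells lie above the gate points for every gene shown, as the choice of genes requires, with Higd1b the farthest apart.

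By list, 16 of the 20 pericyte genes and 16 of the 20 contractile genes had their highest mean in the selected cells rather than in a gate, as 19.0% of the 16579 genes with a UMI in the selected cells did. Of those with 50 CPM in every library, 9 of 11 pericyte genes, 5 of 11 contractile genes and 5 of 11 vasoactive genes were at least 2-fold above every gate, beside 2.76% of all genes. The pericyte list summed to 5715 CPM in the selected cells, 891 in the endothelial gate and 779 in the fibroblast gate. The 16 fibroblast markers summed to 1754 CPM, against 5252 in the fibroblast gate, with 1 of the 16 highest in the selected cells. Endothelial markers summed to 132 CPM against 7389 in the endothelial gate, and the 12 immune markers to 159 against 13427 in the immune gate. All 10 endothelial markers and 9 of the 12 immune markers had a UMI in the selected cells. Of these, 1 endothelial and 2 immune markers reached 10 CPM in every library. At the low end, endothelial Emcn, Tie1 and Cldn5 were at or near 0, and Cd3e, Cd79a and Nkg7 had no UMI.

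Higd1b, which the rule did not use, was also counted at equal depth. After every cell was thinned to 2000 UMIs, which left out 2 selected cells, it was seen in 40.7%, 32.1%, 36.4% and 46.3% of the selected cells (48.1%, 49.1%, 42.4% and 54.8% unthinned). In the endothelial gate, whose median depths were 12495.5, 8793.5, 9414 and 7299 UMIs, it was seen after thinning in 0 of 111, 0 of 126 and 0 of 124 cells (which allow shares of up to 2.70%, 2.38% and 2.42%) and in 0.926% of the tamoxifen library after depletion. Of the fibroblast gate, with median depths of 23158.5, 13032, 14666 and 9929 UMIs, 1.82% had a UMI in vehicle after depletion and 0 of 45, 0 of 24 and 0 of 41 cells in the other libraries (up to 6.67%, 12.5% and 7.32%). The epithelial gate, at 25765, 20220, 28484.5 and 18409 UMIs, had it in 0 of 782 cells (which allows a share of up to 0.384%), 0.0519%, 0 of 837 cells (up to 0.358%) and 0.0637%. No gate passed 2.42% in any library before thinning.

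The selected cells were not uniform. Rgs5 and Myh11, the smooth muscle myosin heavy chain (chr16:14194535-14291372), were each high in different cells. The cells were divided into 3 ranges after their counts had been seen, so what follows describes these cells and tests nothing. The first range, called Rgs5-high here, had at least 10 Rgs5 UMIs and held 62 cells. The second, Myh11-high, had at least 5 Myh11 UMIs and fewer than 10 of Rgs5 and held 29 cells. The remaining 68 cells reached neither count. Their median depths were 10632, 10837 and 14666 UMIs. Few cells lay near the Rgs5 limit, with 1 cell at 8 or 9 UMIs and 4 at 10 to 12, and somewhat more near the Myh11 limit, with 7 cells at 3 or 4 and 6 at 5 or 6. Only 7 cells reached both limits. The median Rgs5 count was 40.5 UMIs per cell in the first range and 0 in both others, and the median Myh11 count was 0.5, 18 and 0 UMIs.

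**Figure D3:**
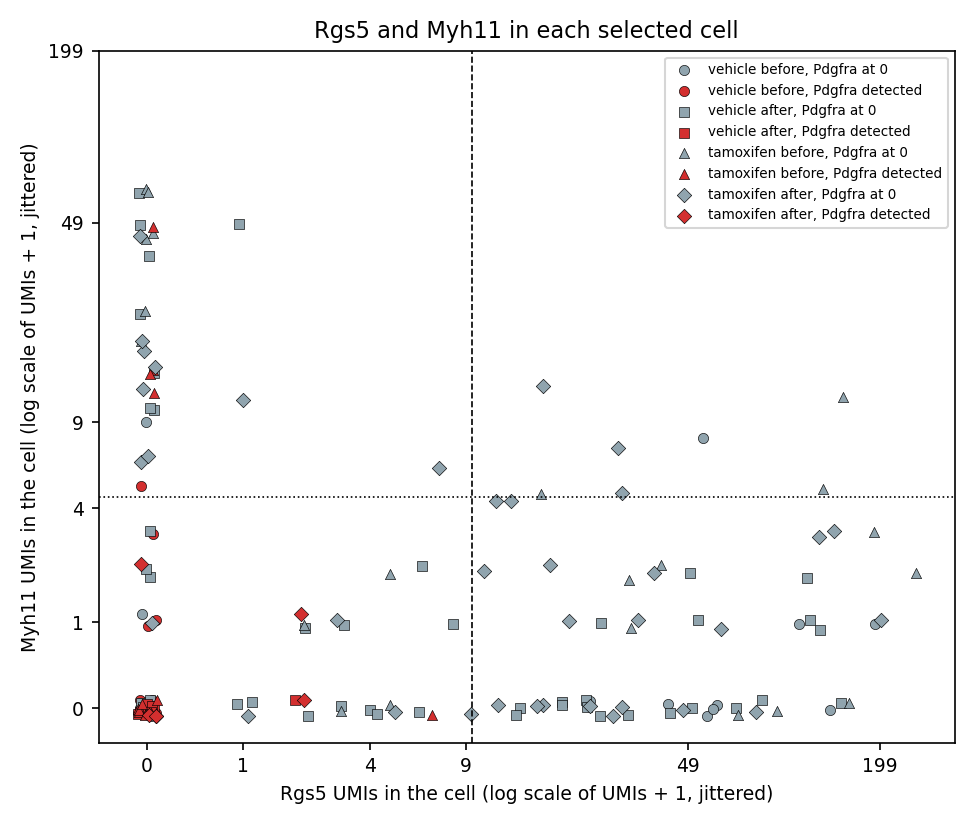
Rgs5 UMIs against Myh11 UMIs in each of the 159 selected cells, by library. Red points are cells with a Pdgfra UMI, the dashed line marks 10 Rgs5 UMIs and the dotted line 5 Myh11 UMIs. Most cells lie along one axis or near the origin, 7 cells pass both lines, and no red point lies at or beyond the Rgs5 line.

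The first 2 ranges, cut on Rgs5 and Myh11, carried the pericyte or contractile genes given below, and the third did so in part. The cells had been chosen by mural genes, so this describes them and does not test the name mural cell. Smooth muscle of vessels was not told apart from that of airways. An Rgs5-high cell of 53550 UMIs had 1 UMI of the pericyte list and none of Pdgfrb or Higd1b. Pdgfra, the PDGF receptor of fibroblasts, was seen in 0 of 62 Rgs5-high cells (which allows a share of up to 4.84%), 5 of 29 Myh11-high cells and 33 of the 68 remaining cells. At least 3 UMIs of Pdgfra, Dcn, Lum and Dpt were present in 14, 9 and 32 cells. Pdgfrb was seen in 60, 27 and 64 cells and Notch3 in 56, 28 and 58. Both genes are part of the rule, so their wide detection is in part fixed by it. The remaining 68 cells are therefore described by their counts and given no name.

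Most of the 16 pericyte genes with at least 30 UMIs in the selected cells were highest in the Rgs5-high range, 12 of them, and 8 were at least 2-fold above both other ranges, where 2.48% of all 8191 genes considered were (42.6% of them were highest in this range). Higd1b stood at 2058 (1957 to 2163) CPM in Rgs5-high cells, 138 in Myh11-high cells and 141 in the remaining cells. Abcc9 was at 737 (677 to 801), 74.7 and 55.4 CPM. Kcnj8, which encodes the pore of the same potassium channel and lies next to Abcc9 (chr6:142564837-142571614 and chr6:142587862-142702315, both on the minus strand), was at 329, 53.7 and 33.6 CPM. Both channel subunits were highest in the same range, with Abcc9 in 53, 13 and 28 cells and Kcnj8 in 39, 7 and 16. The gap junction gene Gja4 was at 220, 42.0 and 15.9 CPM and Art3, of the ADP-ribosyltransferase family, was at 208, 11.7 and 12.6 CPM. Ebf1 was at 1978, 532 and 536 CPM. Cox4i2, a gene of the rule, was at 596, 114 and 133 CPM. Cspg4 differed less, at 417, 308 and 182 CPM, and Des, the muscle intermediate filament desmin, was the 1 pericyte gene at least 2-fold higher in Myh11-high cells, at 583, 1709 and 463 CPM.

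Contractile genes showed the reverse. All 18 considered were highest in the Myh11-high range and 13 were at least 2-fold above both others, where 29.1% and 2.44% of all genes were. Myh11 itself, which defined the range, is 1 of them, and without it the counts were 17 of 17 and 12. Tagln was at 907, 8351 and 1577 CPM and Acta2 at 1755, 8223 and 1552 CPM in Rgs5-high, Myh11-high and remaining cells. Cnn1, calponin, was nearly limited to 1 range at 7.90, 441 and 7.55 CPM, in 3, 24 and 5 cells. Myl9, the regulatory myosin light chain whose promoter holds the CArG box printed above, was at 254, 2131 and 165 CPM. Myocd, the co-activator myocardin, was at 23.7, 371 and 21.8 CPM. Lmod1, leiomodin, was at 39.5, 402 and 35.2 CPM and Mylk, myosin light chain kinase, at 519, 1046 and 398 CPM. The alpha 8 integrin Itga8, a vascular smooth muscle adhesion receptor, was at 34.2, 308 and 70.5 CPM.

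**Figure D4:**
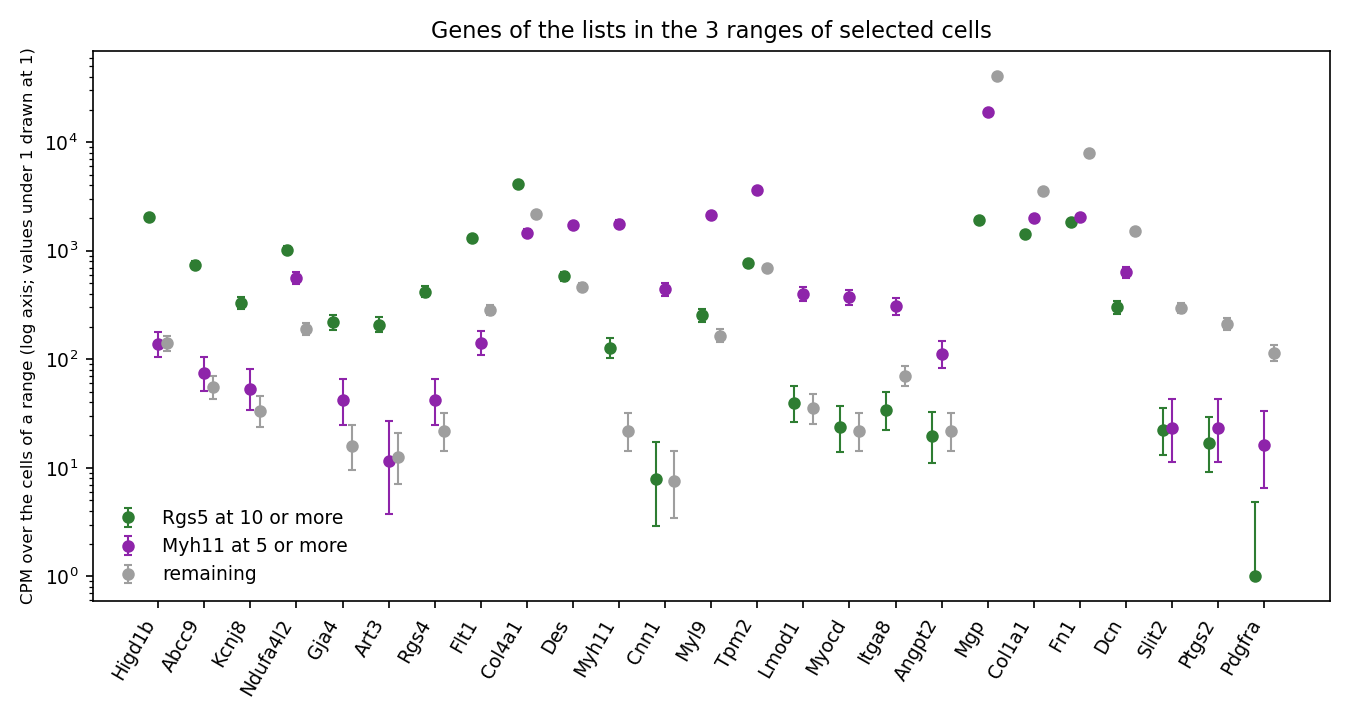
CPM of 25 genes in the 3 ranges of selected cells on a log axis, with exact Poisson 95% intervals as error bars and values under 1 CPM drawn at 1. Pericyte genes such as Higd1b and Abcc9 are highest in the Rgs5-high range, contractile genes such as Cnn1 in the Myh11-high range, and Pdgfra and Slit2 in the remaining cells.

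The remaining 68 cells were highest for 18 of 26 matrix genes, and 5 of these were at least 2-fold above both other ranges, where 28.3% and 1.94% of all genes were. Fn1, fibronectin, stood at 1833, 2045 and 8008 CPM across the ranges and Col1a1, the type I collagen chain, at 1430, 2007 and 3565 CPM. Timp1, a metalloproteinase inhibitor, was at 297, 486 and 1317 CPM, with up to 55.8% of a range's UMIs in 1 cell. Mgp, matrix Gla protein, an inhibitor of calcification, was at 1921, 19109 and 40574 CPM and was absent from most Rgs5-high cells (median 0 UMIs against 55 and 203). Of the 12 fibroblast genes considered, 5 were at least 2-fold higher in the remaining cells and 3 in Myh11-high cells. Of all genes considered, 1.94% and 2.44% were. Among the fibroblast genes Slit2, a guidance ligand, was at 22.4, 23.3 and 300 CPM. Pdgfra was at 0 (0 to 4.85), 16.3 and 115 (96.5 to 136) CPM. Dcn, decorin, was at 301, 635 and 1521 CPM but had a median of only 1 UMI in the remaining cells.

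Genes chosen after their values were seen, by the largest ratio among genes found in at least 1 in 3 cells of a range, add to this picture. Rgs5-high cells were led outside the lists by Dusp2, a MAP kinase phosphatase, at 296, 0 and 15.9 CPM and by Kcnq5, a voltage-gated potassium channel, at 334, 23.3 and 31.0 CPM. Myh11-high cells were led outside the lists by Olfr1033, an olfactory receptor gene, at 6.58, 378 and 5.03 CPM. Crispld2 at 5.26, 878 and 36.1 CPM and Mustn1 at 68.4, 1127 and 62.1 CPM came next. Ccn3, Ctnna3 and Ccn5 followed, at 131, 499 and 327 CPM in Myh11-high cells, and 1 cell gave 55.4% of the Ccn3 UMIs there. After them came the transcription factor Sox6 at 1.32, 91.0 and 0 CPM. The remaining cells were led by Spp1, osteopontin, at 250, 4.67 and 5903 CPM. It was found in 28 of the 68, and 1 cell gave 44.1% of the UMIs. Cxcl14, a chemokine, was at 82.9, 112 and 1427 CPM and was spread over 53 of the 68 cells. Fmod, fibromodulin, was at 7.90, 0 and 232 CPM. Cdh11, the mesenchymal cadherin, ranked lower among the leading genes and was at 55.3, 81.7 and 452 CPM.

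Of 15 basement membrane genes considered, 8 were highest in Rgs5-high cells, a share not far above the 42.6% of all genes, and the 4 that follow are examples of the 8. Col4a1 was at 4108, 1468 and 2202 CPM, Col4a2 at 2037, 796 and 1009 CPM, the laminin chain Lama2 at 276, 46.7 and 123 CPM and nidogen, Nid1, at 763, 215 and 415 CPM. Lama2 and Col4a2 were among those in which Myh11-high cells stood lowest. The fibrillar collagen Col5a3 was likewise highest in Rgs5-high cells, at 617, 124 and 302 CPM. Among integrins, the laminin receptor chain Itga6 was at 191, 0 and 29.4 CPM and the fibronectin receptor chain Itga5 at 77.6, 203 and 77.2 CPM.

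Notch pathway genes were less divided. Of 10 considered, 1 was at least 2-fold above both other ranges, in Myh11-high cells, where 2.44% of all genes were. It was Hey2, a target repressor, at 18.4, 51.4 and 10.1 CPM. Notch3 was at 378, 430 and 186 CPM, Heyl, its mural target, at 183, 208 and 139 CPM, and Hes1 at 145, 126 and 125 CPM. Nrarp, a feedback inhibitor induced by Notch, was at 162, 88.7 and 34.4 CPM, in 45, 16 and 17 cells. The ligand Jag1 was at 69.8, 53.7 and 44.5 CPM, while Dll4, an endothelial ligand, had UMIs in 1 selected cell.

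Genes that set vessel tone split between the first 2 ranges. Of 15 vasoactive genes considered, 5 were at least 2-fold higher in Rgs5-high cells and 4 in Myh11-high cells. Of all 8191 genes considered, 2.48% and 2.44% were. In Rgs5-high cells the endothelin receptor Ednra was at 451 CPM against 212 and 154, the angiotensin receptor Agtr1a at 38.2 against 2.33 and 0.839, and Rgs4 at 420 against 42.0 and 21.8. Gucy1b1 was at 678, 320 and 208 CPM in the ranges. In Myh11-high cells the calcium channel Cacna1c was at 1062 CPM against 515 and 513, the adenylate cyclase Adcy5 at 114 against 7.90 and 0, Rgs2 at 495 against 107 and 208, and the purinergic receptor P2ry14 at 420 against 42.1 and 133. Prkg1, the cGMP-dependent kinase downstream of guanylate cyclase, was found in nearly every cell, at 1829, 1160 and 940 CPM.

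Growth factor genes differed by range as well. Flt1, a VEGF receptor better known from endothelium, was at 1315 CPM in Rgs5-high cells, 142 in Myh11-high cells and 285 in the remaining cells, and was found in 61 of the 62 Rgs5-high cells. Kdr, the main endothelial VEGF receptor, stayed between 1.59 and 4.08 CPM in the 4 libraries. Angpt2, the Tie2 antagonist, was highest in Myh11-high cells at 19.7, 112 and 21.8 CPM. Angpt1, the Tie2 agonist of mural cells, differed less at 92.1, 140 and 84.8 CPM. Vegfa was highest in the remaining cells at 59.2, 63.0 and 174 CPM. The BMP antagonist Grem1 was at 1.32, 18.7 and 171 CPM, and Id1, a BMP target, at 596, 224 and 269 CPM. Of 16 chemokine, cytokine and adhesion genes considered, 3 were at least 2-fold higher in the remaining cells and 1 in Myh11-high cells. Of all 8191 genes considered, 1.94% and 2.44% were. Ptgs2, cyclooxygenase 2, was at 17.1, 23.3 and 211 CPM, the cytokine Lif at 6.58, 25.7 and 147 CPM and the adhesion molecule Vcam1 at 7.90, 98.0 and 185 CPM. The neutrophil chemokine Cxcl1 had the other order, at 1079, 889 and 500.1 CPM.

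Complex IV of the respiratory chain has alternative forms of some subunits. Ndufa4l2 was at 1026 (956 to 1101), 563 and 190 CPM in the 3 ranges. Its paralogue Ndufa4 was found in 15 of 62, 26 of 29 and 48 of 68 cells, at 110 (88.2 to 137), 219 and 192 CPM. Within Rgs5-high cells Ndufa4 was at 34.2, 39.6, 21.8 and 269 CPM in the 4 libraries, and 1 cell gave 38.1% of its UMIs in that range. The common isoform Cox4i1, whose alternative is Cox4i2, was similar in the ranges, at 834, 740 and 743 CPM. The order of Cox4i2 across the ranges is in part fixed by its place in the rule.

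At equal depth most cells carried both lists. At 2000 UMIs per cell, 146 of 157 cells had at least 2 UMIs of pericyte genes and 134 at least 2 of contractile genes (Myl6, Tpm1 and Cald1 left out). Both lists were present in 126 cells, the pericyte list alone in 20, the contractile list alone in 8 and neither in 3. By library both were present in 74.1%, 78.6%, 81.8% and 85.4% of the selected cells and in 26.7%, 34.5%, 37.5% and 24.4% of the fibroblast gate. Pericyte genes reached 2 UMIs in 38.0% to 47.6% of the endothelial gate and contractile genes in 58.5% to 71.1% of the fibroblast gate, so 2 UMIs of 1 list do not set these cells apart. Over the cells of a library, the pericyte sum and the type I collagen sum had Spearman correlations of −0.80, −0.48, −0.68 and −0.42 over 27, 56, 33 and 41 cells. Pericyte and contractile sums had −0.37, −0.23, 0.17 and −0.39. The points share a library and a fixed total of UMIs.

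The libraries drew differently on the 3 ranges. Rgs5-high cells made up 33.3% (16.5 to 54.0), 33.3% (21.4 to 47.1), 33.3% (18 to 51.8) and 54.8% (38.7 to 70.2) of the selected cells, from 9, 19, 11 and 23 cells. Myh11-high cells made up 7.41% (0.910 to 24.3), 14% (6.26 to 25.8), 30.3% (15.6 to 48.7) and 21.4% (10.3 to 36.8), from 2, 8, 10 and 9 cells. The remaining cells made up 59.3% (38.8 to 77.6), 52.6% (39.0 to 66.0), 36.4% (20.4 to 54.9) and 23.8% (12.1 to 39.5), from 16, 30, 12 and 10 cells. Their share was higher in both vehicle libraries than in the tamoxifen library of the same portion. The intervals overlapped widely before depletion and narrowly after it, where the tamoxifen upper bound was 39.5% and the vehicle lower bound 39.0%. With 1 library per group, treatment and suspension cannot be told apart.

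Levels summed over the selected cells differed alongside this makeup. Myh11 was at 49.7 (33.5 to 70.9), 420, 623 and 383 CPM, from 30, 276, 391 and 188 UMIs in 9, 21, 20 and 27 cells. Only the vehicle library before depletion was low, and it is the one with 2 Myh11-high cells. Cnn1 was at 6.62, 119, 127 and 85.6 CPM with the same library low. Mgp was at 30472, 26646, 22733 and 15901 CPM, and Pdgfra at 134, 30.4, 54.2 and 18.3 CPM. For both, the tamoxifen library of each portion was below the vehicle library. After depletion the Pdgfra levels rest on 20 and 9 UMIs, and their intervals overlapped (18.6 to 47.0 and 8.39 to 34.8 CPM). Within Rgs5-high cells alone, Rgs5 was at 5040, 5954, 6586 and 4048 CPM and Higd1b at 2749, 1702, 2784 and 1382 CPM, without a shared direction for Rgs5 between the portions. The Rgs5-high cells of tamoxifen after depletion include a cell with 53550 UMIs, 430 of them from Krt8 and Krt18 and none from Higd1b. It lowers both levels in that library, so no direction after depletion is read from them.

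Across all genes, few differed between tamoxifen and vehicle in the same direction in both portions. A gene was counted when each pair of libraries had at least 30 UMIs of it and its log2 ratio, with 10 CPM added, showed a difference of 2-fold or more in one direction both before and after depletion. Of 5428 genes considered, 11 (0.203%) were higher and 14 (0.258%) lower in the libraries labelled tamoxifen. In a single pair the counts were 136 higher and 117 lower of 6110 before depletion, and 94 higher and 93 lower of 5770 after depletion. This is a rule of size and not a test, and both pairs come from the same suspensions.

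Of the 11 higher genes, 3 were not higher in a comparison gate than in the selected cells. Igfbp5, an IGF-binding protein of the matrix, was at 313, 71.5, 1062 and 234 CPM. It was found in 6, 13, 11 and 7 cells, and 1 cell gave 88.8% of its UMIs in tamoxifen before depletion, so its level there is largely that of this cell. Olfr1033 was at 0, 41, 153 and 102 CPM in 0, 4, 9 and 11 cells, where a count of 0 allows up to 4.97 CPM. As given above, it was nearly limited to Myh11-high cells, of which the libraries held 2, 8, 10 and 9. Grin2a, a glutamate receptor subunit, was at 11.6, 15.2, 63.7 and 42.8 CPM in 3, 7, 8 and 8 cells.

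The other higher genes were AY036118, Cav1, Cdh13, Clu, Mmp9, Spint2, Tnfaip8 and Txnip. AY036118 was the most widely detected, at 326, 344, 894 and 944 CPM in 151 of the 159 cells, with at most 16.6% of a library's UMIs in 1 cell. Txnip, a thioredoxin inhibitor, was at 61.3, 68.4, 169 and 149 CPM. Cdh13, a cadherin of vascular cells, was at 33.1, 33.4, 126 and 137 CPM, found in 21 of 29 Myh11-high cells, 2 of 62 Rgs5-high cells and 11 of 68 remaining cells. Cav1, caveolin, was at 36.4, 38.0, 89.2 and 104 CPM. Clu reached 1086 CPM in tamoxifen after depletion, and 92.1% of that came from 1 cell. For 6 of the 11 genes, 1 cell gave over 50% of the UMIs in some library with at least 10.

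All 14 lower genes had a higher mean in a comparison gate, 9 of them in the fibroblast gate. Colec12, a scavenger receptor, was at 445, 287, 182 and 73.4 CPM in 17, 30, 16 and 13 cells. Robo2, a Slit receptor, was at 364, 213, 100 and 71.3 CPM, and Gas6, the ligand of the TAM receptor kinases, at 176, 105, 60.5 and 30.6 CPM. Svep1 was at 136, 74.5, 60.5 and 22.4 CPM, and the Wnt inhibitor Wif1 at 358, 95.8, 54.2 and 42.8 CPM. Each of these 5 was lowest in tamoxifen after depletion, and Wif1 took 54.6% of its UMIs in vehicle before depletion from 1 cell. The other 9 were Agmo, C1qtnf12, Fam78b, Fmo2, Gdpd3, Igfbp2, Inmt, Plk3 and Plvap. Igfbp2 and Inmt were found in at most 3 cells of a library, and for 4 of the 14 genes 1 cell gave over 50% of the UMIs in some library with at least 10. Svep1 was at 134 CPM in the range of low Rgs5 and low Myh11, against 18.4 and 14 in the other ranges. That range was also a smaller share of the selected cells in tamoxifen than in vehicle of the same portion. Its part in these differences was not tested. With the cells carrying at least 3 UMIs of Pdgfra, Dcn, Lum and Dpt left out, 3504 genes were considered, 10 of the 14 fell under 30 UMIs in a pair, and 2 of the 4 still considered passed. Among Rgs5-high cells alone 2042 genes were considered and all 14 were under that minimum, so their ratios there were not read.

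Few list genes passed the size rule. None of the 14 pericyte genes considered passed the size rule in either direction, and their median log2 ratio of tamoxifen over vehicle was 0.20 before and 0.28 after depletion, beside −0.02 and 0.02 over all genes. Among Rgs5-high cells alone the medians were −0.07 and −0.50, so the sign was not kept. The value after depletion includes the keratin-rich cell of 53550 UMIs, in which the pericyte list had 1 UMI. That cell lowers the pericyte levels of its library, so the size of this median is not read further. None of 16 contractile genes passed, with medians of 0.84 and −0.05, and the vehicle library before depletion is the one with 2 Myh11-high cells. Of 8 fibroblast genes 1 was lower (Inmt), with medians of −0.71 and −0.51. None of 26 matrix genes passed, and 13 were below 0 in both portions and 2 above, beside 25.4% of all genes on each side. None of 12 vasoactive genes passed, with 7 above 0 in both portions and 2 below. Gucy1a1, for example, was at 460, 500, 667 and 640 CPM. None of the Notch, TGF-beta, complex IV, hypoxia, heat shock or integrin genes considered passed.

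**Figure D5:**
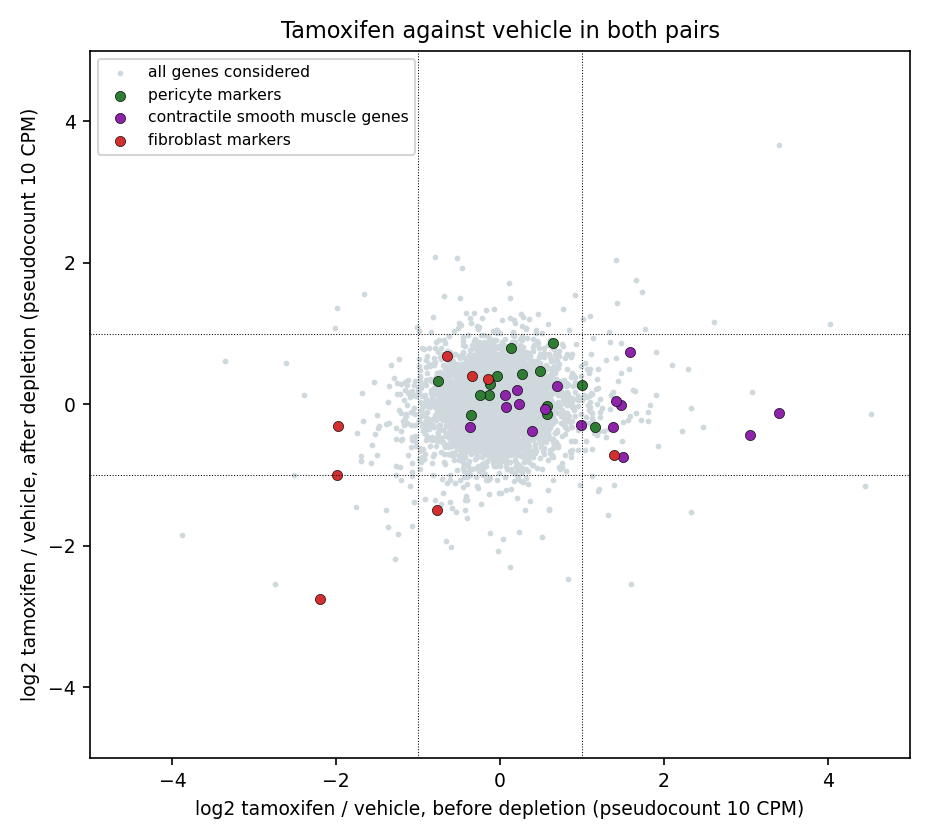
Log2 ratio of tamoxifen over vehicle before depletion (horizontal) and after depletion (vertical) for the genes considered, with 10 CPM added. Genes of the pericyte, contractile and fibroblast lists are coloured and dotted lines mark 2-fold. The cloud is centred near 0 in both directions, and 25 of 5428 genes lie beyond 2-fold the same way in both portions.

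The chemokine list reversed between the portions, and the interferon list was above 0 mainly before depletion. Chemokine and cytokine genes had a median log2 ratio of 0.85 before depletion and −0.94 after it. Il6 was at 53.0, 202, 180 and 26.5 CPM, Ptgs2 at 51.3, 71.5, 298 and 18.3 CPM and the monocyte chemokine Ccl2 at 21.5, 555, 46.2 and 91.7 CPM. Il6 and Ptgs2 were lowest in tamoxifen after depletion, and Il6 and Ccl2 were highest in vehicle after depletion. Interferon response genes had medians of 1.16 and 0.08, with Bst2 at 79.5, 82.1, 223 and 93.8 CPM and H2-D1, a class I antigen, at 181, 313, 562 and 277 CPM, so that the tamoxifen library before depletion alone stood above the rest. Cell cycle genes were rare: Mki67 was found in 4, 6, 3 and 3 cells and Top2a in 3, 4, 0 and 2.

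Depletion separated the libraries by about as many genes. Of 5464 considered, 11 (0.201%) were higher and 12 (0.22%) lower after depletion in both treatments. All 11 higher genes had a higher mean in another gate, 9 of them in the epithelial gate, among them Krt8, Krt18, Sftpa1, Sftpb and Sftpc. Sftpc, the surfactant gene of alveolar type 2 cells, was at 187, 1718, 226 and 1035 CPM and had a UMI in all 159 selected cells. After thinning, it was seen in 40.7%, 87.5%, 48.5% and 85.4% of selected cells and in 32.4%, 94.4%, 45.2% and 95.4% of the endothelial gate, whose median depths were 12495.5, 8793.5, 9414 and 7299 UMIs. The shares of the selected cells were near those of the endothelial gate in each library. A Sftpc UMI is therefore not taken as a sign that a selected cell expresses the gene, and its source was not tested. Krt8 at 377 CPM and Krt18 at 552 CPM in tamoxifen after depletion came to 94.1% and 94.5% from 1 cell.

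That cell had 53550 UMIs, 430 of them from Krt8 and Krt18 and 54 from the mesothelial gene Msln, besides 12 of Rgs5 and no UMI of Abcc9 or Higd1b, and it was counted among the Rgs5-high cells. A second cell, in vehicle after depletion, had 269 UMIs of Sftpc and 69 of Lyz2. Neither reached the doublet score of 0.25, nor did any other selected cell, the highest being 0.236.

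The 12 lower genes after depletion were Bdkrb2, Chst11, Egfem1, Fmo2, Gm19951, Has2, Igfbp5, Kcnb2, Lif, Pdgfra, Prkg2 and Ptprm. Pdgfra was among them at the levels given above, with 13, 8, 12 and 5 positive cells. Has2, hyaluronan synthase, was at 62.9, 7.60, 132 and 42.8 CPM, and Prkg2 at 103, 41, 66.9 and 24.5 CPM. A single cell gave 59.0% of the Has2 UMIs in tamoxifen before depletion and 72.6% of the Prkg2 UMIs in vehicle before depletion. For 6 of the 12 lower and 5 of the 11 higher genes, 1 cell gave over 50% of the UMIs in some library with at least 10. Matrix genes stood below 0 in both treatments for 17 of 26 and above for 2, beside 29.7% and 27.6% of all genes. Complex IV genes stood above 0 in both for 10 of 13, without any reaching 2-fold. When the cells with at least 3 UMIs of the 4 fibroblast genes were left out, 5 of 3569 genes considered were lower after depletion. Of the 12, 10 fell under 30 UMIs in a pair and neither of the other two passed.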

How the data were processed

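Single-cell RNA was measured in 4 libraries. The deposited matrices hold whole-number UMI counts per gene and barcode for 32289 features. The authors made these counts with Cell Ranger, version 7.0.1 per the file headers and 7.2.0 per the submitters' processing notes, which name the build mm10. The use of introns and of strand is not given in the sources used here.

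Cells were filtered and selected as stated, and the members and gene lists were chosen with earlier results of these data known. Counts were summed over the selected cells of each library (603842, 657748, 627815 and 490666 UMIs) and scaled to CPM. Intervals are exact Poisson for CPM and Clopper-Pearson for shares. Upper limits for a count of 0 correspond to 3 counts. Gene ratios add a pseudocount of 10 CPM. No p-value was computed, since each group has 1 library. The size rule was checked on simulated counts. The edgeR package was used only for TMM scaling factors.

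The named genes are those of the rule, members of the lists, the 20 genes farthest above the comparison gates, and up to 10 (tamoxifen) or 5 (depletion) genes each way by the smaller ratio under the size rule, leaving out those with a higher mean in a gate. The range-leading genes and the other counted genes were named after their values were seen. Doublets were scored with Scrublet in scanpy. The automatic threshold called 192, 1, 91 and 0 cells and had not worked after depletion, so a score of 0.25 was used as an alternative, and it removed no selected cell. Gene positions are from GENCODE M21 (GRCm38) and upstream sequences from RefSeq (GRCm38.p6). Versions were Python 3.11.15, numpy 2.4.6, scipy 1.17.1, pandas 2.3.3, scanpy 1.11.5, R 4.3.3 and edgeR 4.0.16.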

Additional observations from a re-analysis of the deposited data

How the results depend on the processing

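Every value rests on 1 library per group and on 27 to 57 cells, so animals, suspensions and treatment cannot be told apart, and few UMIs stand behind many genes. With the cells carrying at least 3 UMIs of Pdgfra, Dcn, Lum and Dpt left out, the share of selected cells was 0.192%, 0.582%, 0.337% and 0.373%, with vehicle before depletion still the lowest. The counts of genes higher with tamoxifen, lower with tamoxifen, higher after depletion and lower after depletion were 11, 14, 11 and 12. They became 17, 22, 28 and 23 with at least 10 UMIs per pair (8705 and 8734 genes considered), 4, 3, 1 and 1 with at least 100 (1973 and 1950), and 1, 2, 2 and 0 at 4-fold. A pseudocount of 1 CPM gave 23 genes lower with tamoxifen and 23 lower after depletion. A first sum of at least 3 gave 6 higher (0.123%) and 5 lower (0.102%) with tamoxifen among 4891 genes considered. Leaving out the fibroblast-gene cells gave 14 higher (0.4%) and 13 lower (0.371%) with tamoxifen among 3504 genes considered. For depletion it gave 13 higher (0.364%) and 5 lower (0.14%) among 3569. Leaving out cells with at least 10 UMIs of Krt8 and Krt18 gave 7 of 5328 genes (0.131%) higher after depletion. Rgs5-high cells alone gave 9 higher (0.441%) and 6 lower (0.294%) with tamoxifen among 2042 genes considered. For depletion they gave 11 higher (0.541%) and 9 lower (0.442%) among 2034. Over all selected cells these 4 shares were 0.203%, 0.258%, 0.201% and 0.22%. Of the 11 and 14 genes that differed with tamoxifen, 7 and 2 were still counted without the fibroblast-gene cells, where 10 and 4 still had 30 UMIs in each pair, and 2 and 0 in Rgs5-high cells alone, where 2 and 0 had. With the mean of each cell's CPM in place of the sum, 6, 9, 8 and 6 of the 11, 14, 11 and 12 genes were still counted, and the remainder kept their direction below 2-fold in at least 1 pair. The median of the chemokine list for tamoxifen after against before depletion went from −1.13 to 0.02 without the fibroblast-gene cells. The cause of these changes was not tested. TMM factors lay between 0.968 and 1.022 and moved none of 74 list medians by more than the spread used. The alternatives that leave out cells by fibroblast genes, by keratins or by Rgs5 were chosen after seeing the data.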

Other observations

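Transcription factors of lung mesenchyme were present in the selected cells of every library. Tbx4, which marks the mesenchyme of the developing lung, was at 187, 105, 153 and 122 CPM, and Foxf1, a target of hedgehog signalling in that tissue, at 86.1, 86.7, 82.8 and 75.4 CPM. Nr2f2, a venous and mesenchymal nuclear receptor, was at 323, 293, 468 and 344 CPM and was highest in Rgs5-high cells (497 CPM against 364 and 266). Tbx18, a mural factor of other organs, stayed between 1.52 and 6.37 CPM. Immediate early genes, which also respond to tissue dissociation, were high throughout, with Fos at 2529, 2613, 3560 and 2488 CPM, and none of the 20 passed the size rule with tamoxifen.

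Ccl19, a chemokine of lymphoid stromal cells that attracts T cells and dendritic cells, had 0, 0, 21 and 54 UMIs, that is 33.4 (20.7 to 51.1) and 110 (82.7 to 144) CPM in the libraries labelled tamoxifen. The UMIs came from 3 cells in each, and Ccl21a had none in any library. The interferon-induced chemokine Cxcl9 was at 1.66, 0, 174 and 0 CPM, from 1 cell in vehicle and 2 cells in tamoxifen before depletion. These few cells do not support a statement on the treatment.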
